A study of Mus musculus with 6 samples.

Results

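The genes described here are the 10 mouse genes Srxn1, Txnrd1, Txnrd2, Txn1 and Prdx1 to Prdx6, which encode proteins of the thioredoxin and peroxiredoxin systems of the cell. They were chosen by name, and each symbol matched 1 row among the 27179 genes of the table. The RNA came from B16F10, an established line of mouse melanoma cells with the label wild type, which was grown as 3 cultures treated with 0.01% OLO (olive oil) and 3 cultures treated with 0.01% OZO (ozonated olive oil), each for 6 h. All 6 cultures therefore share the oil, and OZO differs from OLO by the exposure of the oil to ozone. Every level given below is the authors' mean over the OLO and OZO libraries together, so it says how strongly a gene was expressed in these cells and nothing about a difference between the treatments. The order of the genes, their ratios and their shares may differ within OLO or within OZO. No values of individual cultures entered the analysis, so the spread between cultures is not given. The authors' own test of OZO against OLO was left out by choice, and none is reported.

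Thioredoxin is a small protein that reduces disulfide bonds in other proteins, and thioredoxin reductase returns it to its active form with electrons from NADPH. Peroxiredoxins are abundant thiol enzymes that remove hydrogen peroxide and lipid or organic peroxides, and most of them are recycled by thioredoxin. A peroxiredoxin whose catalytic cysteine has been oxidised too far is repaired by sulfiredoxin. Several genes of this system are known targets of the transcription factor NRF2, which binds antioxidant response elements.

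The authors' mean is an average of log2 CPM, where CPM is the read count scaled to a common library size. From the value shared by the 6025 genes without reads, 1 CPM stood for 19.6 reads in an average library. The 10 members had between 297 (Prdx5) and 34570 (Prdx1) reads in such a library, which gives a counting error of 5.80% and 0.538% of the level. This error covers counting within 1 library only. The cells had the melanocyte genes that their label calls for, with Dct at 7052 CPM, Tyrp1 at 5832, Pmel at 3066, Mlana at 545, Tyr at 301, Mitf at 288 and Sox10 at 109 CPM. Of the keratinocyte genes, Krt5 had no reads, and Krt14 and Krt10 were both at 0.0306 CPM. Markers of fibroblasts, leukocytes and endothelium were between 0.0702 CPM (Ptprc) and 5.47 CPM (Cd68). With the 0.5 reads added to each count, Krt14 and Krt10 each rested on 0.600 reads in an average library and Ptprc on 1.38.

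Because long transcripts give more reads, levels of different genes were set against each other after division by length, as CPM per kilobase of the longest transcript in the GENCODE annotation. Of 19227 genes with reads and a known length, the median was 1.87 CPM per kilobase. The 10 members had a median of 74.5 CPM per kilobase, and they ranged from 7.50 (Txnrd2) to 767 (Prdx1). With the median transcript in place of the longest the median was 149, and the range ran from 20.02 (Prdx5) to 2714 (Prdx1). In the order from high to low stood Prdx1, Txn1, Txnrd1, Prdx2, Prdx3, Srxn1, Prdx6, Prdx4, Prdx5 and Txnrd2. As the spread between cultures is not known, neighbours in this order whose levels are close cannot be said to differ. Txn1 exceeded Txnrd1 by a ratio of 1.11, Prdx2 exceeded Prdx3 by 1.13, Prdx3 exceeded Srxn1 by 1.12, Srxn1 exceeded Prdx6 by 1.14, and Prdx5 exceeded Txnrd2 by 1.10, whereas wider steps lay between Prdx1 and Txn1 (4.29), Txnrd1 and Prdx2 (1.82), Prdx6 and Prdx4 (1.77), and Prdx4 and Prdx5 (4.22). These steps changed with the gene length used. For Prdx4, Prdx5 and Prdx6 the longest transcript is not the longest protein-coding transcript, and with the latter Prdx5 exceeded Txnrd2 by 1.60. With the median transcript Srxn1 stood second, its ratio to Prdx3 ran from 0.888 to 5.62 over 4 gene lengths, and the ratio of Prdx1 to Txn1 ran from 3.23 to 15.2.

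**Figure D1:**
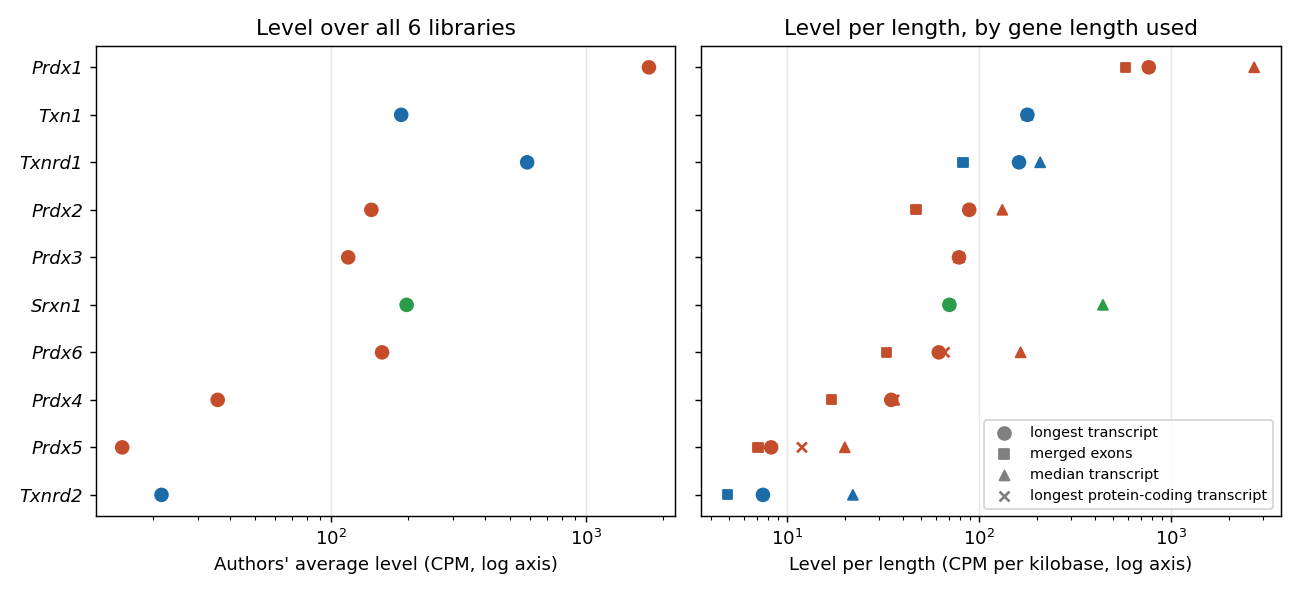
Level of each member in CPM (left, log axis) and per length in CPM per kilobase (right, log axis), as the authors' mean over 6 libraries; marks on the right show 4 ways to measure gene length, and colours show peroxiredoxins (red), thioredoxin and its reductases (blue) and sulfiredoxin (green). Prdx1 lies furthest to the right with every gene length, and Txnrd2 and Prdx5 lie furthest to the left.

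Sequences upstream of 2 genes are shown first, for the member with the highest level, Prdx1, and the member with the most matches to TGANNNNGC, Srxn1. Each is the 250 bases before the start of the gene in RefSeq on GRCm38.p6, the plus strand in both cases. Capitals mark matches to TGANNNNGC on either strand, where N is any base. This is a loose pattern for the core of the antioxidant response element, and no stricter form was searched.
Prdx1, chr4:116685349-116685598: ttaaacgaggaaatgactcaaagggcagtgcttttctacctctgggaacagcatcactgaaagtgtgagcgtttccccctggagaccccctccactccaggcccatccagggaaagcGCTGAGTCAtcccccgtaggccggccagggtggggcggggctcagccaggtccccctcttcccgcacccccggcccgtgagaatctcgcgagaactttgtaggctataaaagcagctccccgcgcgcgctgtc
Srxn1, chr2:152105274-152105523: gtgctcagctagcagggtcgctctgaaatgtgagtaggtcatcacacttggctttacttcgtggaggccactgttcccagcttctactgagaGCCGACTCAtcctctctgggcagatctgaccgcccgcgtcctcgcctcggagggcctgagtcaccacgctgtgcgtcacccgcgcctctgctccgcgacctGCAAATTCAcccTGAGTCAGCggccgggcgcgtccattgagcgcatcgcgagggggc
In Prdx1 the marked stretch, read on the minus strand as TGACTCAGC, overlaps a match to the AP-1 site TGAGTCA. In Srxn1 the last of the marked stretches, TGAGTCAGC, also contains that AP-1 site. Promoter windows of 300 bases, which include the 50 bases after the start, were found for 9 of the 10 members, and Txnrd1 had 3 of them, so that there were 11 windows in all. Prdx6 was the member without a window, so its promoter was not searched. Matches to TGANNNNGC numbered 4 in the window of Srxn1, 2 in that of Prdx1 and 1 in that of Prdx5, and 2 of the 3 windows of Txnrd1 held 1 each. Such a match is common, since 41.3% of 32851 mouse promoter windows of the same length hold at least 1. Of the 11 windows of the members, 5 did, and these belonged to 4 of the 9 members. The AP-1 site TGAGTCA was in the windows of Srxn1 and Prdx1 with 2 matches in each, and in 5.20% of all windows. The GC box GGGCGG, searched on both strands, was in 9 of the 11 windows of the members and in 35.7% of all windows. Each of the 9 members had it in 1 window, with 4 matches in Txn1 and 3 in Prdx4. The letters TATAAA, the core of the TATA box, were searched on both strands and were in 13.6% of all windows. Counted from the start of the gene, the match in Prdx1 began at -29, that in Txn1 at -160 and that in Prdx3, on the other strand, at -239. The windows of the members were between 48.0% and 68.7% G and C, against a median of 52.7% for all windows. These matches describe letters of the reference, and binding was not measured.

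Thioredoxin 1, the cytosolic and nuclear thioredoxin encoded by Txn1, was at 188 CPM. This came to 179 CPM per kilobase, a level higher than that of 98.8% of genes with reads and a length. Txn1 lies on chromosome 4 of GRCm38 from 57943373 to 57956411 on the minus strand, and 1 transcript of 1051 bases is annotated. Txn2, which encodes the mitochondrial thioredoxin, was lower per length, at 48.6 CPM per kilobase. The ratio of Txn1 to Txn2 was 3.68 with the longest transcript and between 1.21 and 7.55 over 4 ways to measure gene length. Txnip, whose product binds and inhibits thioredoxin, was at 176 CPM and 62.4 CPM per kilobase. Txn1 was 2.87 times as high as Txnip with the longest transcript and between 0.655 and 3.17 times over the 4 lengths, so that their order depended on the length used.

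The reductases differed widely in level. Txnrd1 encodes the cytosolic thioredoxin reductase, a selenoprotein, and lies on chromosome 10 from 82833951 to 82897712 on the plus strand. It was at 586 CPM and had 162 CPM per kilobase, which was higher than 98.6% of genes. Txnrd2, which encodes the mitochondrial reductase and lies on chromosome 16 from 18426384 to 18479073 on the plus strand, was at 21.6 CPM and 7.50 CPM per kilobase. Over the 4 lengths the level of Txnrd2 ran from 4.90 to 22.1 CPM per kilobase. Per length, Txnrd1 was 21.6 times as high as Txnrd2 with the longest transcript and between 9.45 and 21.6 times over the 4 lengths. Txnrd3, the third reductase gene, whose product is best known from testis, was at 44.4 CPM and 15.6 CPM per kilobase. Its ratio to Txnrd2 was 2.09 with the longest transcript and ran from 0.755 to 3.19 over the 4 lengths, so that their order depended on the length used. For the mitochondrial pair, Txn2 was 6.48 times as high per length as Txnrd2, and between 4.83 and 6.68 times over the 4 lengths.

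Prdx1 stood apart from the rest of the system. It encodes a cytosolic peroxiredoxin, lies on chromosome 4 from 116685544 to 116700822 on the plus strand, and was at 1760.0 CPM. Its 767 CPM per kilobase exceeded the level of 99.8% of genes with reads and a length. Among the 6 peroxiredoxin genes it held 73.8% of the summed level per kilobase, and between 73.1% and 86.3% over the 4 gene lengths. Prdx2, its closest cytosolic relative, is on chromosome 8 from 84969587 to 84974834 on the plus strand and was at 144 CPM and 89.0 CPM per kilobase. Prdx1 was 8.62 times as high per length as Prdx2, and between 8.62 and 20.5 times over the 4 lengths. Transcripts of 3 annotated processed pseudogenes match Prdx1 transcripts at up to 98.3% identity. A further such pseudogene matches Prdx2 at 96.3% and another matches Txn1 at 95.8%. None of these 5 pseudogenes was matched to a row of the table by its Ensembl identifier, and how their reads were counted was not tested.

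The mitochondrial peroxiredoxins were unequal. Prdx3, on chromosome 19 from 60864051 to 60874556 on the minus strand, encodes the peroxiredoxin of the mitochondrial matrix and was at 116 CPM and 78.8 CPM per kilobase, above 96.5% of genes. Prdx5, whose product is found in mitochondria, peroxisomes and the cytosol, is on the same chromosome from 6906697 to 6910106 on the minus strand. It was at 15.1 CPM, and with 8.28 CPM per kilobase it lay above 67.1% of genes. Prdx3 was 9.51 times as high per length as Prdx5, and between 3.93 and 11.1 times over the 4 lengths. Prdx5 shares 409 exon bases, 19.1% of its own, with Trmt112 on the opposite strand, which was at 23.7 CPM. By the same measure Prdx2 shared 5.80% of its exon bases with Rnaseh2a and 5.67% with Junb, and no exon bases of Srxn1, Txnrd1, Txn1, Prdx1, Prdx3, Prdx4 or Prdx6 were shared with another annotated gene. Whether reads in shared bases were counted, and for which gene, was not tested.

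Prdx4, the peroxiredoxin of the endoplasmic reticulum, lies on chromosome X from 155323918 to 155340754 on the minus strand. It was at 35.8 CPM and 34.9 CPM per kilobase, above 89.97% of genes. Prdx6, which lies on chromosome 1 from 161240112 to 161251219 on the minus strand, encodes a peroxiredoxin that uses glutathione in place of thioredoxin and also has phospholipase activity. It was at 158 CPM and 61.8 CPM per kilobase, above 95.1% of genes, and its level per length ran from 32.9 to 165 over the 4 lengths. By length Prdx6 stood below Prdx3, with a ratio of 0.784, but that ratio ran from 0.418 to 2.09 over the 4 lengths. Prdx2 remained above Prdx4 throughout, by a ratio between 2.46 and 3.66.

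Srxn1, which encodes sulfiredoxin, lies on chromosome 2 from 152105516 to 152111376 on the plus strand. It was at 197 CPM and at 70.2 CPM per kilobase, above 95.9% of genes. Prdx1 was 10.9 times as high per length as Srxn1, and between 6.13 and 10.9 times over the 4 lengths. Srxn1 moved more than any other member with the choice of length, since its longest transcript has 2812 bases and its median transcript 446, and its level ran from 70.0 to 442 CPM per kilobase.

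**Figure D2:**
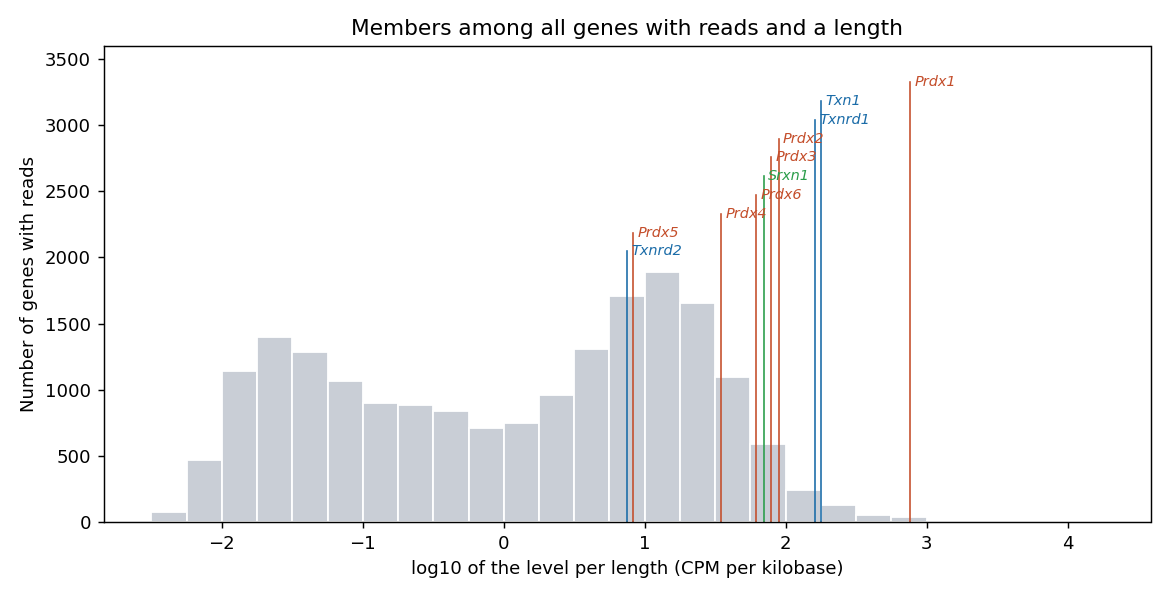
Number of genes with reads (vertical axis) by log10 of the level per length in CPM per kilobase (horizontal axis), with a coloured line for each member (red peroxiredoxins, blue thioredoxin and reductases, green sulfiredoxin). The members stand from Txnrd2, above 65.6% of genes, to Prdx1, above 99.8%.

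All 10 members were at 1 CPM or more, as were 43.7% of all 27179 genes. Of the members, 7 lay above 95% of genes with reads and a length, Prdx4 lay just below 90%, and Prdx5 and Txnrd2 lay above 67.1% and 65.6%. This count depended on the genes and scale used, since 4 members lay above 95% of genes at 1 CPM or more, and 2 lay above 95% of genes with reads when ordered by CPM. Over genes at 1 CPM or more, Prdx5 lay above 45.0% and Txnrd2 above 42.5%. A list of 39 further genes of the thioredoxin and glutaredoxin pathways gave the surroundings of the members. It holds thioredoxin-like proteins, glutaredoxins, methionine sulfoxide reductases, sestrins and proteins that thioredoxin reduces or binds. All 39 had reads, and 35 were at 1 CPM or more. For the 38 with a length the median was 13.5 CPM per kilobase, and 12 of them (31.6%) lay above 90% of genes. With the longest transcript, no gene of the list reached the level per length of Prdx1, Txn1 or Txnrd1, and 13 were below every member.

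The highest of the list per length was Rrm2, a subunit of ribonucleotide reductase, an enzyme that thioredoxin supplies with electrons. Its level per length, 160 CPM per kilobase, was next to that of Txnrd1. Tmx2, a thioredoxin-related membrane protein, was at 89.2 CPM per kilobase, close to Prdx2, and Rrm1, the other ribonucleotide reductase subunit, was at 77.1, close to Prdx3. The lowest were Glrx5, a mitochondrial glutaredoxin for iron-sulfur clusters, at 0.0427 CPM per kilobase, Nme8 at 0.212 and Txndc8 at 0.281. Txndc8 and Nme8 are best known from testis. The level of Glrx5 rested on 2.46 reads in an average library, the 0.5 that voom adds included. How reads of Glrx5 were counted was not tested, and its value may not show its true level. The level of Nme9, which had no length, rested on 0.997 reads with the 0.5 that voom adds.

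**Figure D3:**
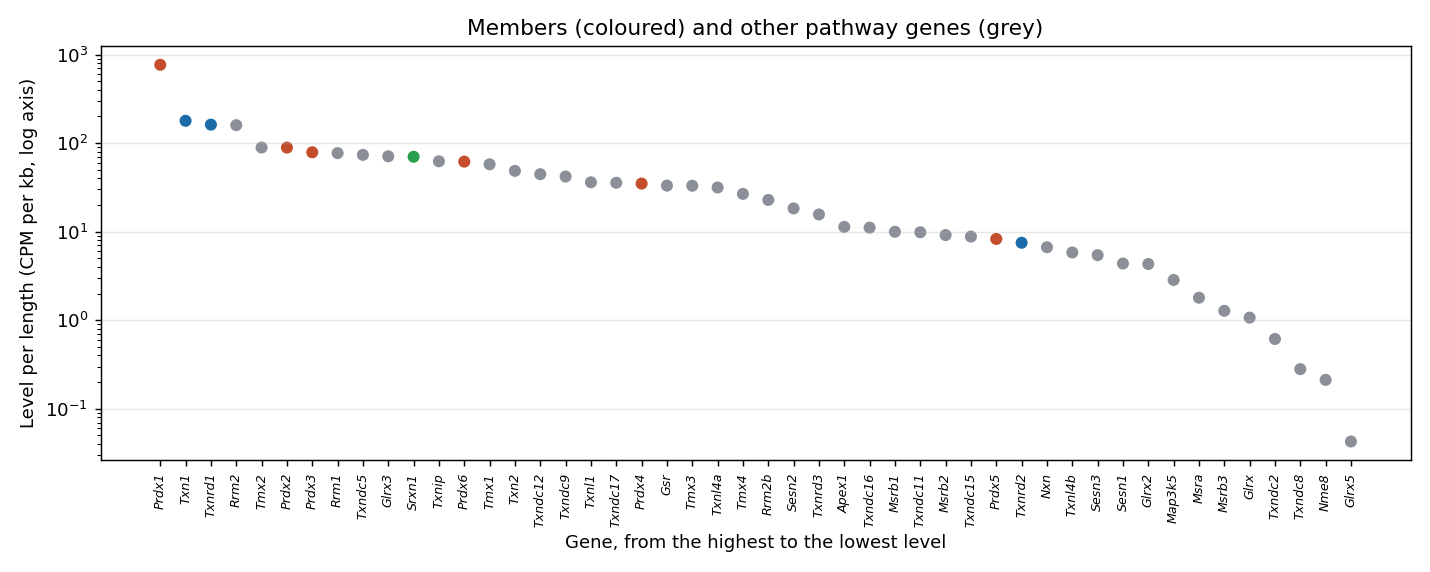
Level per length (CPM per kilobase, log axis) of the 10 members (coloured as red peroxiredoxins, blue thioredoxin and reductases, green sulfiredoxin) and of 38 other pathway genes (grey), ordered from high to low. Prdx1, Txn1 and Txnrd1 stand highest, and Prdx5 and Txnrd2 stand at 8.28 and 7.50 CPM per kilobase.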

How the data were processed

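RNA of 3 OLO-treated and 3 OZO-treated B16F10 cultures was sequenced. According to the methods and the submitters' processing notes, reads were aligned to mm10 with HISAT2 (2.1.0), counted per gene with featureCounts (2.1.1) and compared with limma-voom (3.58.1). The table the authors deposited holds, per gene, the average log2 CPM over all 6 libraries, which was used, and the authors' own comparison of OZO with OLO (log2 fold changes, statistics, p-values), which was not used. It holds 1 row per gene and no values of single libraries were analysed here. Libraries were made with a directional kit, which keeps the strand of the RNA. Whether featureCounts used the strand is not given in the sources used here, nor is its annotation. UCSC annotation is named for StringTie only.

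Levels were 2 to the power of the deposited log2 average. The geometric mean of the library sizes came from the value of genes without reads and the 0.5 reads that voom adds. Lengths, positions and overlaps came from GENCODE M21 (GRCm38, the mm10 build), in which 23882 of 24126 Ensembl identifiers had a length. Shares of promoter windows came from RefSeq (GRCm38.p6). Pseudogene transcripts were found with BLAST (2.17.0) at 90% identity or more over at least 50% of the pseudogene and 200 bases. The library size, the recognition of genes without reads and the average level were tested on simulated counts. The motif search and the merged exon length were tested on made-up inputs, and the other calculations were not tested.

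Named were all members, and of a list of other pathway genes Txn2, Txnrd3, Txnip and the 3 highest and 3 lowest per length. The other genes named in the text are markers, overlapping genes and Nme9. Members and lists were chosen with earlier results of these data known. Python 3.11.15, numpy 2.4.6 and pandas 2.3.3 were used.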

Additional observations from a re-analysis of the deposited data

How the results depend on the processing

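No paired analysis was possible because each gene has 1 average over all libraries. The authors' own comparison of OZO with OLO was left out by choice, and without values of individual cultures no test of it could be fitted here. Other size factors, a filter on low counts, a replicate block, another pseudocount and leaving out each culture were not run, and depth limits the levels only through the counting error given with them. Taking off the 0.5 reads that voom adds left the median level of the members at 151 CPM. With merged exons the median level per length was 58.5 CPM per kilobase and with the median transcript 149, in place of 74.5, because the levels are divided by another length. Of the 45 pairs of members, 2 changed their order with merged exons, 8 with the median transcript and 0 with the longest protein-coding transcript, which was chosen after seeing the data. Prdx1 stood first, Prdx4 eighth, and Prdx5 and Txnrd2 last with each of these lengths. The median member lay above 97.0% of all rows with a length, 93.7% of genes at 1 CPM or more and 92.8% of genes with reads when ordered by CPM, a setting chosen after seeing the data, in place of 96.2%. Over genes at 1 CPM or more, Prdx4 lay above 83.2%, Prdx5 above 45.0% and Txnrd2 above 42.5%, and ordered by CPM Prdx4 lay above 73.7%. The place of all 10 members moved by more than its 95% binomial interval over genes in both of these settings. The number of list genes was 35 at a limit of 0.5 CPM and 34 at 2 CPM, in place of 35.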
